A study of Rattus norvegicus with 47 samples.

Results

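The comparison described here is that of rat testis 4 h after a single dose of methoxyacetic acid (MAA) with testis 4 h after saline. Its members were chosen by the labelled treatment and time alone. They are 11 of the 47 arrays of the series, 6 from MAA-treated rats (animals 3, 4, 7, 8, 11 and 12) and 5 from saline-treated rats (animals 2, 5, 6, 9 and 10). All were Sprague-Dawley males, labelled as 90 days old and killed by CO2 asphyxiation. The treated rats had received 650 mg of MAA per kg of body weight. The rest of the series holds the same pair of groups at 8, 12 and 24 h, each time with saline animals of its own. RNA from a piece of the right testis of each animal was hybridised in 2 colours against a universal rat reference RNA on an oligonucleotide array.

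Methoxyacetic acid is formed in the body from the industrial solvent methoxyethanol and is a classical testicular toxicant. In the rat it kills pachytene and dividing spermatocytes first, while spermatogonia survive and Sertoli cells, which nurse the germ cells, change their shape and secretion. In cultured cells it inhibits histone deacetylases, the enzymes that remove acetyl groups from histones, and it potentiates signalling through nuclear steroid receptors. The 4 h arrays sample the testis early after dosing, and the question they address is which transcripts differ at that time.

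Few probes were called at 4 h, and those called were higher after MAA. Of 20500 probes tested with limma, 4 (0.0195%) passed an adjusted p of 0.05, and all 4 were higher in the MAA animals, by 1.65-fold to 1.93-fold. Rbm38, a known target of the tumour suppressor p53 whose product binds RNA, rose 1.74-fold. Dpf1, which encodes a subunit of the BAF chromatin-remodelling complex known from neurons, rose 1.65-fold. The other two calls were probes without a gene name, numbers 5512 and 4919 on the array. No probe was called lower by limma, although 639 had an unadjusted p under 0.05 in that direction, against 876 in the other, together 7.39% of the probes. These calls take the spread between animals from all 47 arrays. In a fit of the 11 arrays of 4 h alone no probe passed by limma (1268 at an unadjusted p under 0.05), although the log2 changes of the 4 probes lay between 0.69 and 0.94 there (adjusted p = 0.528 for probe 5512 and 0.780 for each of the others).

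One of the 6 treated animals, animal 3, stood apart from the other MAA animals of 4 h in genes that change at 12 and 24 h, and the counts and most changes at 4 h are therefore also given without it. Without animal 3 limma called 5 of 20500 probes (0.0244%), namely the same 4 and Lrp12, a member of the low-density lipoprotein receptor family. At an unadjusted p under 0.05 there were then 1435 probes (7.00%).

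Levels are given as log2 ratios of the testis channel over the reference channel, normalized by loess within each array. A value of 0 therefore means the typical ratio of that array at the same brightness, not equal raw brightness. On saline animal 5, for example, the median raw intensity was 852 for testis and 2511 for reference. A ratio ranks animals for one probe but not probes against each other. The labels name Cy5 as the dye of the testis RNA, but the files hold testis RNA in the channel headed Cy3, and all directions below follow the files. On the 11 arrays the median log2 ratio over 15 spermatocyte genes, here with each array centred on its median, was between 0.94 and 1.55 in that direction. Over 14 genes typical of liver, heart, lung, kidney and brain, picked once the files had been seen, it was between -2.85 and -1.95. Between 52.2% and 97.2% of probes were above background per array, and the median testis intensity ran from 567 to 1749 units. Neither measure differed detectably between MAA and saline in an exact two-sided permutation test over the 462 splits of the 11 arrays (p = 0.658 and 0.883, both 0.883 after adjustment over the 2 tests). Log2 changes come from a fit that holds the hybridisation date, so they are not the plain difference of the group means. On 2 dates both 4 h groups were hybridised, with 2 MAA and 2 saline animals each, and 3 arrays (MAA animals 3 and 8, saline animal 6) were on dates without the other group. All RNA is from whole testis tissue, in which fewer cells of a type and less RNA per cell cannot be told apart.

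Rbm38 encodes a protein with an RNA recognition motif that is known to bind and stabilise the mRNA of the cell cycle inhibitor p21. Its log2 ratio in the MAA animals ran from 0.17 over a median of 0.31 to 0.43. In the saline animals it was -0.46, -0.87, -0.60, -0.25 and -0.28 (animals 2, 5, 6, 9 and 10). The groups did not overlap, and the MAA animals lay close together at 0.30 ± 0.08 (SD, n = 6) while the saline animals spread more, at -0.49 ± 0.26 (SD, n = 5). The fitted log2 change was 0.80 ± 0.12 (SE; adjusted p = 0.000812 with limma). It was 0.76 ± 0.12 without animal 3, which had the highest level of all. The difference of MAA and saline means was 0.96 within the first shared date and 0.57 within the second.

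Dpf1 encodes a protein with a d4 domain, a zinc finger and PHD fingers that take part in reading histone modifications. In the MAA animals its log2 ratio ran from -0.28 over a median of 0.15 to 0.39, with a mean of 0.12 ± 0.25 (SD, n = 6). In the saline animals it was -0.67, -0.55, -0.81, -0.38 and -0.52, with a mean of -0.59 ± 0.16 (SD, n = 5). No saline animal reached the lowest MAA animal, which was animal 3. The log2 change was 0.73 ± 0.13 (SE; adjusted p = 0.0175 with limma), and 0.76 ± 0.13 without animal 3 (adjusted p = 0.0116). The probe was dim: it was above background on 6 of 6 MAA arrays but on 2 of 5 saline arrays, so the low saline values lie near the floor of the measurement. The call was lost on leaving out saline animal 2, 6 or 10 or MAA animal 4 or 12, with adjusted p-values of up to 0.178, and also without the date term (adjusted p = 0.0893 with limma).

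The promoters of these called genes are shown because they are the named genes that rose together at 4 h. RefSeq sequences on GRCr8 were found for 2 of the 3 genes Rbm38, Dpf1 and Lrp12. Each run holds 250 bases before and 50 bases from the transcription start on, on the plus strand. The first of the pair of Rbm38 starts listed by RefSeq is shown, chr3:182219669-182219968, beside Dpf1 at chr1:93733592-93733891, with every motif match in capitals.
Rbm38: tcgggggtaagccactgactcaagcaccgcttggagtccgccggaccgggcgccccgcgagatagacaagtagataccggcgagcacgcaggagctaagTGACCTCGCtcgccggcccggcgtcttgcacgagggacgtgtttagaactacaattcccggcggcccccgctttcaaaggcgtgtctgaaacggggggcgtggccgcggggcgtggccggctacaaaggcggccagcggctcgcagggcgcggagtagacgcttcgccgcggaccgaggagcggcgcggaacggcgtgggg
Dpf1: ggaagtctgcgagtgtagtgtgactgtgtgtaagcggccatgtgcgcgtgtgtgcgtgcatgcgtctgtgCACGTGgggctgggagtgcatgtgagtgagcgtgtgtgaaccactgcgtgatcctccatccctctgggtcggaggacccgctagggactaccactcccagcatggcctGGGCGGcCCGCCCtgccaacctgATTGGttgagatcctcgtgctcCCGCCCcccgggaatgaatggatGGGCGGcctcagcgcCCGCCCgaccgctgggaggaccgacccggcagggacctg
The letters searched on both strands were the GC box GGGCGG, the CCAAT box CCAAT, the cyclic AMP response element TGACGTCA and its short form TGACG, the E-box CACGTG and the antioxidant response element core TGACNNNGC, besides the p53 half-site. TGACG lies within TGACGTCA, and no other overlap occurred in these runs. The Dpf1 promoter held 5 GC boxes, 1 CCAAT box and 1 E-box, and the Rbm38 promoter shown held 1 antioxidant response element core. The window at the other Rbm38 start held 3 GC boxes and no antioxidant response element core. Among 33465 rat promoters of the same length, 33.1% held a GC box, 37.5% a CCAAT box, 6.42% the E-box and 12.1% the antioxidant response element core. The remaining motifs, held by 1.83% (TGACGTCA), 21.2% (TGACG) and 7.98% (p53 half-site) of all promoters, had no match in these windows.

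The unnamed probe 5512 had the largest change of the 4 calls. Its log2 ratio in the MAA animals ran from -1.31 over a median of -0.97 to -0.65. In the saline animals it was -2.14, -2.02, -1.75, -1.89 and -1.86. The groups were far apart, with a log2 change of 0.95 ± 0.13 (SE; adjusted p = 0.000603 with limma), and with nearly the same difference within the first shared date (0.97) and within the second (0.91). The change was 0.97 without animal 3 (adjusted p = 0.000956 with limma). For the unnamed probe 4919 the MAA animals ran from 0.34 over a median of 0.52 to 1.10. The saline animals had -0.18, -0.29, -0.08, -0.06 and -0.12, a narrow range below every MAA animal. The log2 change was 0.79 ± 0.12 (SE; adjusted p = 0.000603 with limma), with 1.01 on the second shared date and 0.59 on the first. Without animal 3 it was 0.75 (adjusted p = 0.0018 with limma).

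**Figure D1:**
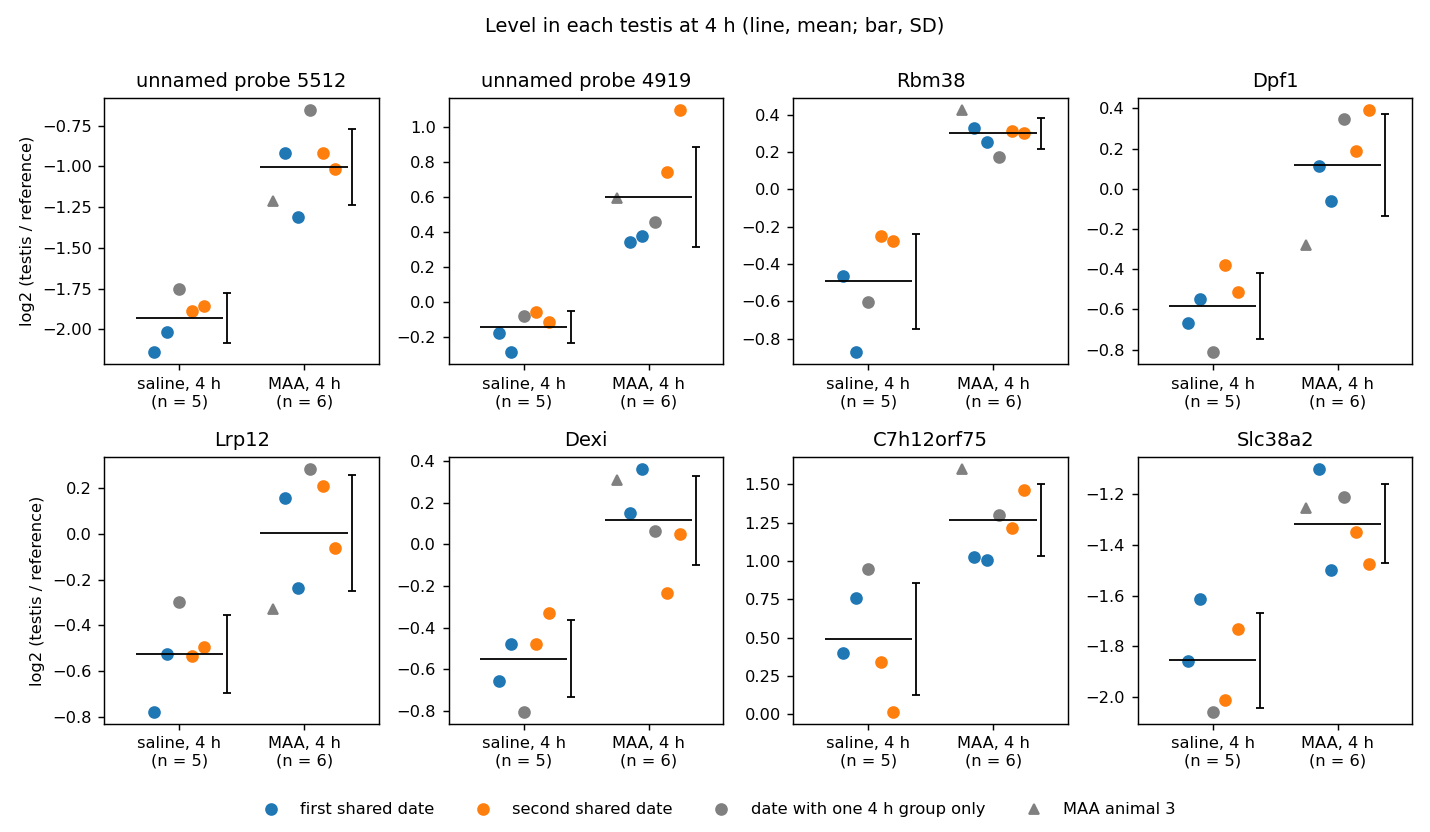
Log2 ratio of testis over reference (vertical axis) in each of the 5 saline and 6 MAA animals of 4 h for 8 probes, coloured by hybridisation date, with the group mean (line) and SD (bar). The 4 called probes (top row) show no overlap between the groups, and in Lrp12 (bottom left) MAA animal 3, at -0.33, lies just below the highest saline animal, at -0.30.

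The called probes were also followed at the later times, each set against its own saline group. Probe 5512 was called at every time, with log2 changes of 0.97 at 8 h, 0.78 at 12 h and 0.44 at 24 h (adjusted p = 0.000195, 0.00105 and 0.0483 with limma). Dpf1 was also called at 8 h, at 0.78 (adjusted p = 0.00534), and at 12 h, at 0.57 (adjusted p = 0.0150), and had a change of 0.13 ± 0.13 (SE) at 24 h. The 4 h effects of probe 5512 and Dpf1 exceeded those at 12 h by 0.17 and 0.15 (adjusted p = 0.783 and 0.806 with limma). The fitted change of Rbm38 was 0.39, 0.42 and 0.26 at 8, 12 and 24 h, none of them called, and that of probe 4919 was 0.29, 0.36 and, called, 0.46. Tests of the difference between the 4 h effect and a later one did not pass for any of these 4 probes. For Rbm38 the difference was 0.41 against 8 h, 0.37 against 12 h and 0.53 against 24 h (adjusted p = 0.745, 0.357 and 0.148 with limma).

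**Figure D2:**
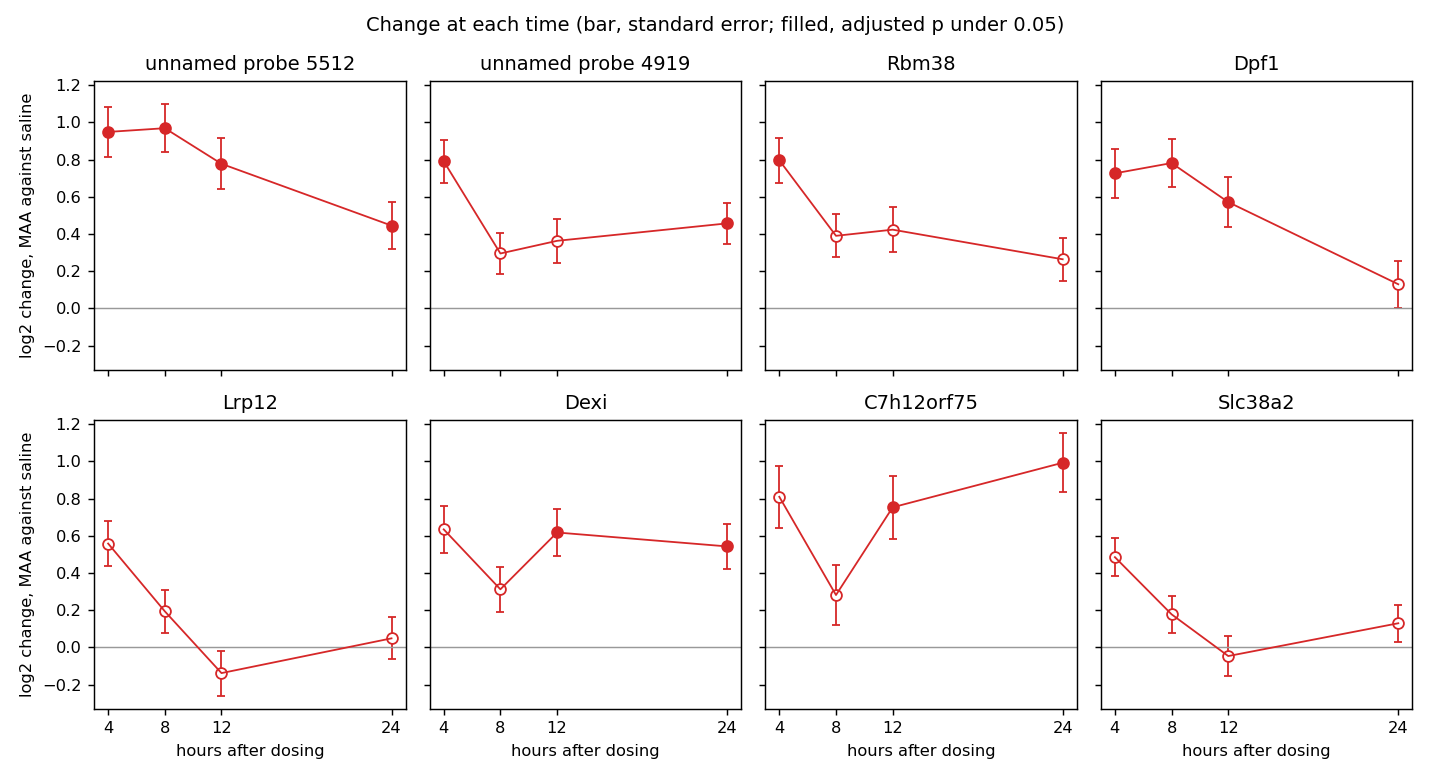
Log2 change of MAA against saline (vertical axis; bar, standard error) at 4, 8, 12 and 24 h for the same 8 probes, with filled points where the adjusted p was under 0.05. Probe 5512 is filled at every time, Rbm38 at 4 h only, and Lrp12 and Slc38a2 lie near 0 at 12 h (-0.14 and -0.05).

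The next genes in order of p at 4 h were also higher after MAA, but did not pass with all animals. They were chosen by their p in this comparison, so their values describe it and add no support. Dexi, a gene first found as induced by dexamethasone, had a log2 change of 0.63 ± 0.12 (SE; adjusted p = 0.0502 with limma). Its log2 ratio ran from -0.24 over a median of 0.11 to 0.36 in the MAA animals, and was -0.66, -0.48, -0.80, -0.48 and -0.33 in the saline animals, without overlap. Without animal 3 its change was 0.62 (adjusted p = 0.0964 with limma). Dexi was called higher at 12 h and at 24 h, at 0.62 and 0.54.

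C7h12orf75, an open reading frame of unassigned function here, was the only gene of these with 2 bright probes that both came near the threshold. The log2 changes were 0.81 ± 0.17 and 0.70 ± 0.15 (SE; adjusted p = 0.0798 and 0.096 with limma). For the first probe the MAA animals ran from 1.00 over a median of 1.26 to 1.60, and the saline animals had 0.40, 0.76, 0.95, 0.34 and 0.02. The groups touched closely, since saline animal 6 at 0.95 lay just below the lowest MAA animal. The change of this probe was 0.77 without animal 3 (adjusted p = 0.172 with limma). The gene was called higher at 12 h (0.75) and 24 h (0.99).

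Lrp12 and Slc38a2 had fitted changes near 0 at 12 h. Lrp12 had a log2 change of 0.56 ± 0.12 (SE; adjusted p = 0.096 with limma) with all animals and 0.61 ± 0.12 (adjusted p = 0.0333) without animal 3. Its other 2 probes, each below background on some arrays of 4 h, had log2 changes of 0.05 and -0.15, so the call rests on 1 probe. Without animal 3 the 4 h effect of Lrp12 exceeded its 12 h effect by 0.75 (adjusted p = 0.0222), and with it by 0.70 (adjusted p = 0.0518). Slc38a2 encodes SNAT2, an amino acid transporter known to be induced when amino acids are short. Its log2 ratio ran from -1.50 over a median of -1.30 to -1.10 in the MAA animals and was -1.86, -1.61, -2.06, -2.01 and -1.73 in the saline animals. These ranges did not overlap, with a log2 change of 0.49 ± 0.10 (SE; adjusted p = 0.096) and 0.48 without animal 3 (adjusted p = 0.172), while the fitted changes at 8, 12 and 24 h were 0.18, -0.05 and 0.13.

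The remaining higher genes among the first 10 were Ctnnbip1, Slc35a3, Cotl1 and Nfe2l2. Ctnnbip1, an inhibitor of beta-catenin, had a log2 change of 0.59 at 4 h (0.56 without animal 3) and was called at 12 h, at 0.82. Slc35a3, a Golgi transporter of a nucleotide sugar, had 0.74 (0.77 without animal 3), with 2 of 5 saline arrays above background, and its other probe had 0.35. Nfe2l2 encodes NRF2, the transcription factor of the antioxidant response, and its 2 probes had 0.58 and 0.26, the first of them 0.54 without animal 3. Cotl1, which encodes an actin-binding protein, had 0.74 with animal 3 and 0.57 without it, and its other probe had 0.37. In animal 3 the log2 ratio of Cotl1 was -0.82, while the other MAA animals lay between -2.98 and -2.70 and the saline animals between -3.53 and -3.06. Cotl1 was called at 12 h, at 1.03.

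The 10 genes with the smallest p among those lower after MAA had log2 changes between -0.81 and -0.34 and adjusted p-values between 0.268 and 0.409 with limma, so none passed. Without animal 3 none of them passed either, at values between -0.79 and -0.31. Among them were Puf60, a splicing factor (-0.43), Snrpn, a component of small nuclear ribonucleoproteins (-0.73), and Cnbp, a zinc finger protein that binds nucleic acids (-0.34). Brd8, a bromodomain subunit of a histone acetyltransferase complex, had the lowest value, -0.81, with 2 of 6 MAA arrays above background. The others were Gpr173, an orphan receptor (-0.74), Maml3, a coactivator of Notch (-0.61), Oplah, an enzyme of the glutathione cycle (-0.56), Cct3, a chaperonin subunit (-0.56), Deup1, a factor of centriole amplification (-0.44), and Syne4, a nuclear envelope protein (-0.38). In 6 of these 10 and in 9 of the 10 higher genes the 2 groups did not overlap, and in all 20 the sign was the same on both shared dates. All 20 were chosen by their p in these same animals, so neither count adds support. Over all probes the MAA animals lay above every saline animal in 89 (0.434%) and below in 47 (0.229%). Without animal 3 these numbers were 139 (0.678%) and 79 (0.385%).

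**Figure D3:**
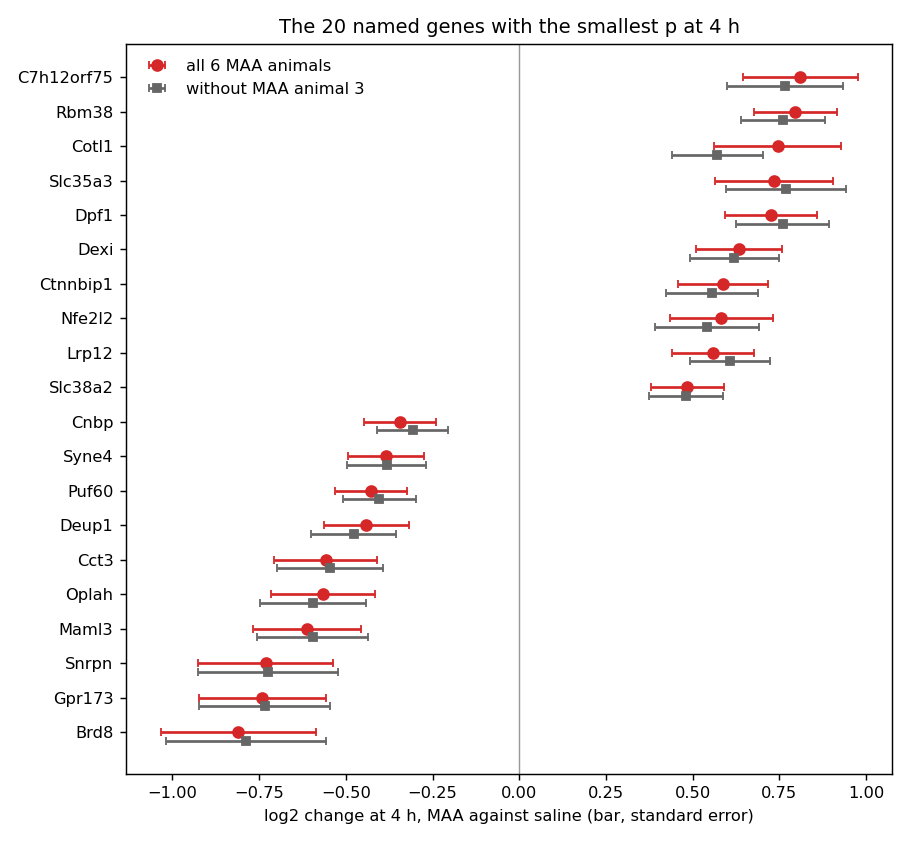
Log2 change at 4 h (horizontal axis; bar, standard error) for the 10 higher and 10 lower named genes with the smallest p, with all 6 MAA animals (circles) and without animal 3 (squares). Cotl1 shows the widest gap between the settings, 0.74 against 0.57.

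Known responses to toxicants were described with 33 gene lists, for which 821 different genes were measured. Of these, Rbm38 and Dpf1 were called, which were also the only 2 calls among all 9645 genes at 1 probe per gene. The lists were chosen with earlier results of these data known, so holding both called genes adds no support. At an unadjusted p under 0.05 were 8.04% of the list genes (30 higher, 36 lower). Over all 9645 genes these numbered 429 higher and 332 lower, and over all probes, not limited to 1 per gene, the share was 7.39%. Without animal 3 the called list genes were also 2, beside 3 of all 9645 genes. An unadjusted p under 0.05 was then found for 7.31% of the list genes (24 higher, 36 lower). All 9645 genes then held 411 higher and 317 lower, and the share of all probes, not limited to 1 per gene, was 7.00%. The like measure for the lists is the count over the 9645 genes, not the share of all probes. The median log2 change over a list lay between -0.14 and 0.13, and between -0.13 and 0.10 without animal 3, beside 0.00 over all 9645 genes, of which 51.0% were above 0. In all 33 lists the MAA animals and the saline animals overlapped in their list level, the median over its genes of the deviation from the mean of the 11 arrays, with and without animal 3. Centring each array on its median, in place of the loess normalization, turned the sign of 17 of the 33 medians, so no direction is drawn from a list at 4 h. For the lists, log2 changes and list medians are written as the value with all animals / the value without animal 3.

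Of 25 p53 targets measured, Rbm38 was called and 1 further gene, Ccng1 (cyclin G1), had an unadjusted p under 0.05, with a log2 change of 0.33 / 0.29, which was 0.19 on leaving out saline animal 6. The list had a median of 0.02 / -0.04. Cdkn1a, which encodes p21, and Mdm2, the ligase that degrades p53, had 0.03 / 0.07 and -0.11 / -0.09, both named after their values were seen. Of 14 subunits of BAF complexes measured, Dpf1 was called and the other 13 had values between -0.33 and 0.25 with all animals. Its relatives Dpf2 and Dpf3, picked out after their values were seen, had -0.12 / -0.13 and -0.01 / -0.06.

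Among 24 histone deacetylases and acetyltransferases none was called, with Ncoa1 (0.36 / 0.40), Kat2a (0.36 / 0.35) and Sirt3 (0.25 / 0.25, and 0.15 without MAA animal 4) at an unadjusted p under 0.05. Other probes of Ncoa1 and of Kat2a had values from -0.16 to -0.02. Of 21 genes known to respond to inhibitors of histone deacetylases, none was called and the median was 0.00 / -0.02. Cdkn2b, a cell cycle inhibitor, had 0.50 / 0.50, with 2 of 5 saline arrays above background, and -0.10 with its other probe.

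Of 31 immediate-early genes, none was called, and Klf10 (0.50 / 0.46), Dusp5 (0.31 / 0.33) and Zfp36 (-0.38 / -0.43, other probe -0.05) had an unadjusted p under 0.05. Klf10 is a transcription factor induced by transforming growth factor beta, and its MAA animals ran from -0.47 over a median of -0.09 to 0.51, overlapping the saline range of -1.02 to -0.27. In the response to unfolded proteins Pdia4 (0.40 / 0.36) and Edem1 (0.32 / 0.27, other probe 0.16), which fold and dispose of proteins in the endoplasmic reticulum, and Nupr1 (-0.47 / -0.41) stood first of 25 genes. Among 45 oxidative stress genes these were Gsr (-0.70 / -0.65), Hmox1 (0.33 / 0.24) and Gpx2 (-0.36 / -0.40). Gsr, glutathione reductase, and Gpx2, a glutathione peroxidase, were each above background on at most 3 MAA and 2 saline arrays. Hmox1, haem oxygenase, had a log2 ratio of 1.06 in animal 3 and between -0.06 and 0.25 in the other MAA animals, and its other probe, above background on all 11 arrays, had a change of -0.03. No gene of the 30 heat shock proteins, the 20 glucocorticoid-responsive genes or the 14 clock genes had an unadjusted p under 0.05 with all animals. Without animal 3 the heat shock genes Chordc1 (-0.39) and Dnaja4 (-0.31) and the clock gene Per2 (0.39) did, named after their values were seen.

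In the metabolic lists Ldha (-0.45 / -0.45), Eno1 (-0.40 / -0.37) and Gpi (-0.29 / -0.32), enzymes of glycolysis and lactate formation, had the smallest p of 31 genes, and 22.6% of that list was above 0. Saline animal 6 was the highest animal for Ldha, with a log2 ratio of 1.74, while the other saline animals lay between 0.83 and 1.03 and the MAA animals between 0.47 and 0.93. On leaving out saline animal 6 the change of Ldha was -0.25 and that of Eno1 -0.20. Cpt1b (0.35 / 0.30), Acsl3 (-0.52 / -0.47) and Acsl6 (0.30 / 0.28, and 0.18 without saline animal 6), which handle fatty acids, had the smallest p of 42 genes of fatty acid oxidation. The Cpt1b spot was saturated on 2 of the 11 arrays, so its change is known only within that limit. Cyp17a1, the steroid enzyme of Leydig cells that leads to androgens, had -0.62 / -0.52, and its MAA range of 0.00 to 0.79 overlapped the saline range of 0.64 to 1.70. In the same list Sc5d, an enzyme of cholesterol synthesis, had 0.38 / 0.37.

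**Figure D4:**
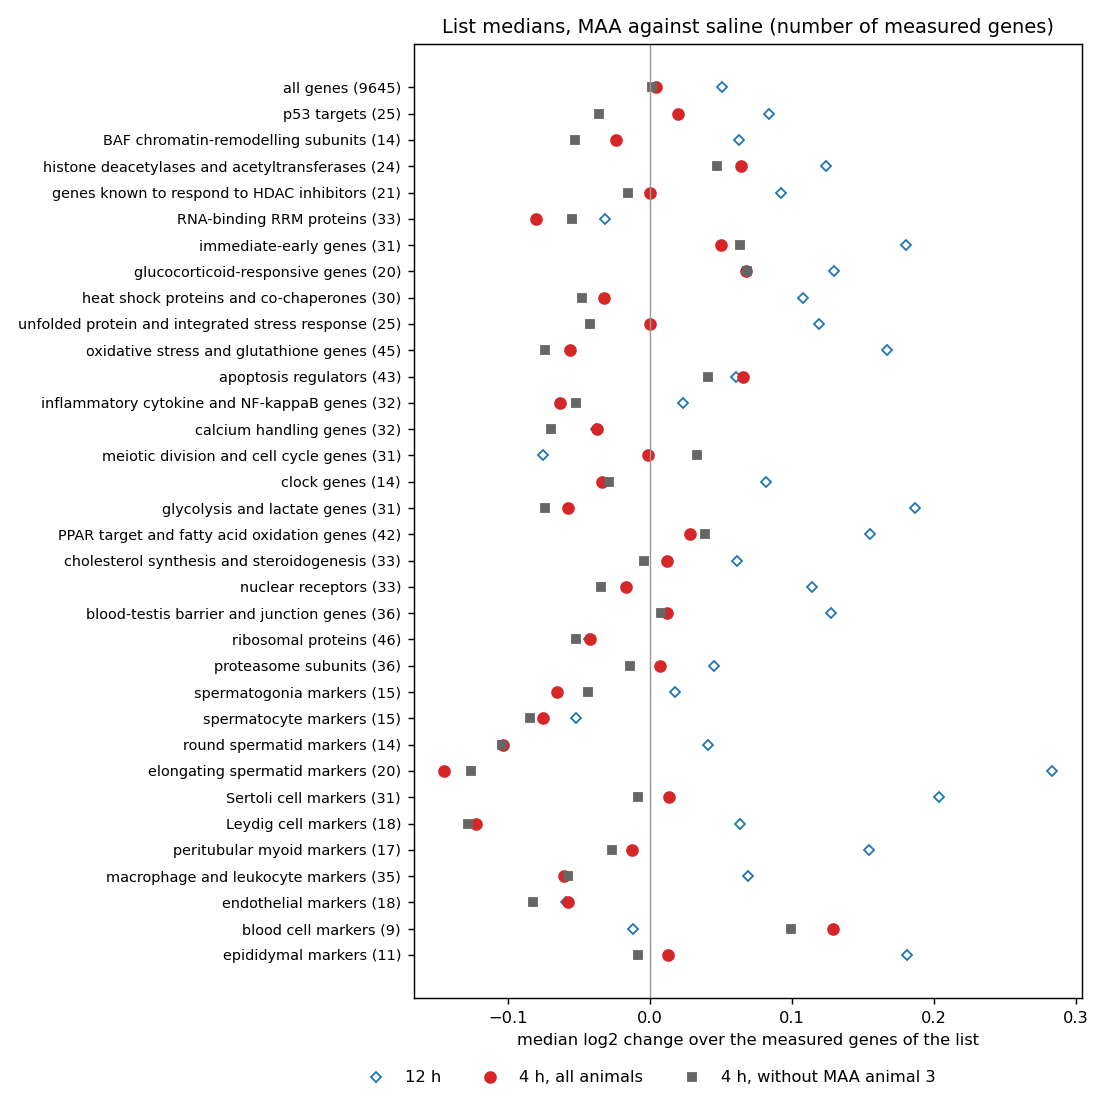
Median log2 change of MAA against saline (horizontal axis) over the measured genes of each list at 4 h with all animals (filled circles), at 4 h without animal 3 (squares) and at 12 h (open diamonds), with the number of measured genes in brackets. The 4 h medians lie between -0.14 and 0.13, and 26 of the 33 medians are above 0 at 12 h against 13 at 4 h. The median over all genes is itself 0.05 at 12 h and 0.00 at 4 h. With median centring 28 of the 33 are above 0 at 4 h.

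The cell types of the testis were followed through their markers, and no marker was called at 4 h. The spermatocyte markers, 15 genes of which each was above background on all arrays of at least 1 group, had a median of -0.08 / -0.08, with none at an unadjusted p under 0.05. Sycp1 and Sycp3, proteins of the synaptonemal complex that pairs chromosomes in meiosis, had -0.20 / -0.09 and -0.18 / -0.12, named after their values were seen. Spermatogonia (15 genes, median -0.07 / -0.04), round spermatids (14 genes, -0.10 / -0.10) and elongating spermatids (20 genes, -0.14 / -0.13) had medians below 0 too. With median centring the last of these was 0.08. Uchl1, a spermatogonial ubiquitin hydrolase, and Tekt2, a tektin of the sperm tail, had -0.42 / -0.42 and -0.30 / -0.32.

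Of the somatic cells, 31 Sertoli cell markers had a median of 0.01 / -0.01, with none at an unadjusted p under 0.05. Leydig cell markers (18 genes) had a median of -0.12 / -0.13, with Cyp2a1 (-0.58 / -0.58), Cyp17a1 and Pebp1 (-0.39 / -0.35) first, and a median of 0.04 with median centring. Pebp1 was saturated on 2 of the 11 arrays and had -0.17 on leaving out saline animal 6. Myoid cells (17 genes, median -0.01 / -0.03), macrophages and leukocytes (35 genes, -0.06 / -0.06) and endothelium (18 genes, -0.06 / -0.08) had small medians. The 9 blood cell markers had the highest median of all lists, 0.13 / 0.10, with Alas2 (0.25 / 0.21) and Epb42 (0.44 / 0.42, and 0.23 without MAA animal 12) of the red cell lineage first. The list level of none of these cell types separated the groups, and the part of cell composition in the 4 calls was not tested.

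Animal 3 was compared with the other animals of 4 h on genes taken from the later times alone. It had been singled out beforehand because its profile looked like a later time. The counts therefore describe how far it stood apart and are no independent support. A fit without any 4 h array called 323 probes higher and 165 lower at 12 h. In 183 of the 323 (56.7%) animal 3 had the highest log2 ratio of the 11 animals of 4 h, and in 110 of the 165 (66.7%) the lowest. No other animal was highest in over 7.74% or lowest in over 5.45%. Relative to the mean of the saline animals of 4 h, its median shift was 0.45 in the first set and -0.49 in the second, against medians of 0.56 and -0.68 in the 12 h comparison itself. The 24 h sets gave the same picture, with animal 3 highest in 270 of 497 probes (54.3%) and lowest in 92 of 164 (56.1%).

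Cklf and Slbp, picked after their values were seen, show how far apart this animal lay in some genes. In Prdx4, Gpi and Actg2, also named below for a difference from 12 h, animal 3 was not flagged as an outlier. Cklf, a chemokine-like factor, had a log2 ratio of -0.65 in animal 3, between 0.61 and 0.94 in the other 5 MAA animals and between 0.61 and 0.88 in the saline animals. Cklf was lower at 12 h by a log2 change of -1.58. Slbp, which binds the stem-loop of histone mRNAs, was at -0.64 in animal 3 and between 0.21 and 0.48 in the other MAA animals, and its change at 12 h was -0.92. Animal 3 was the only 4 h animal of its hybridisation date, on which only treated rats were hybridised. Its array lay within the range of the rest in brightness, with 76.3% of probes above background. Which step set this animal apart was not tested.

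**Figure D5:**
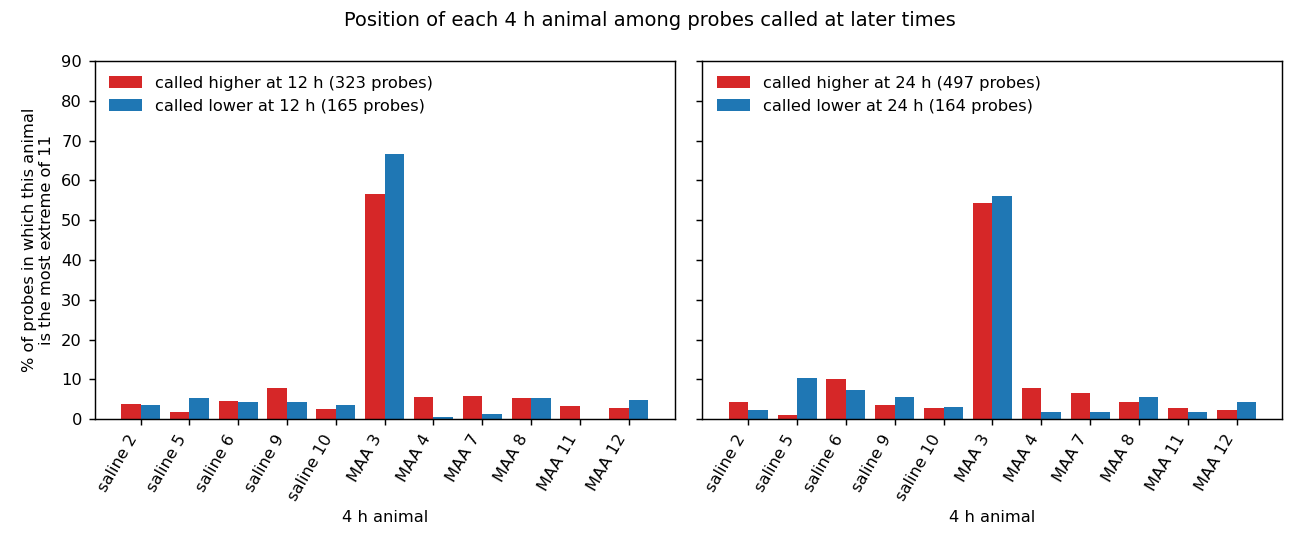
Share of probes (vertical axis, percent) in which each of the 11 animals of 4 h (horizontal axis) had the most extreme log2 ratio, for probes called higher (red) and lower (blue) at 12 h (left) and 24 h (right) in a fit without the 4 h arrays. MAA animal 3 holds 56.7% and 66.7% at 12 h and 54.3% and 56.1% at 24 h.

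In the 8 arrays of the shared dates, which do not include animal 3, the later changes were hardly seen. The probes called higher at 12 h had a median difference of 0.04 there and 58.8% had the same sign, and those called lower had a median of 0.03 and 42.4% the same sign, beside 50.1% and 49.9% over all probes. With animal 3 in the fit the medians were 0.13 and -0.05, and without it 0.07 and -0.01. The few probes called at 8 h in a fit without the 4 h arrays (4 higher, 2 lower) all had the same sign at 4 h, with medians of 0.74 and -0.34 at 4 h against 0.78 and -0.84 at 8 h. Without animal 3 the 4 h medians were 0.67 and -0.22, and within the shared dates 0.59 and -0.19. Animal 3 was the lowest of the 11 animals in both lower probes, with a median shift of -1.37 from the saline mean, against -0.32 to -0.10 in the other MAA animals. Of the 4 higher probes, 2 were also called at 4 h.

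The 4 h effect was also tested against each later effect in one fit. Against 8 h no probe differed by limma (1291 at an unadjusted p under 0.05). Against 12 h 44 probes differed (0.215%), 23 with the higher value at 4 h and 21 with the lower, and against 24 h 66 (0.322%), 18 and 48. Without animal 3 these counts were 110 and 124. The direction depended on the scaling. With median centring the probes higher and lower at 4 h numbered 305 and 62 against 12 h and 492 and 107 against 24 h, and with the testis channel alone 8 and 0 and 50 and 13. None of the 4 probes called at 4 h was among those that differed.

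The genes with the smallest p for a difference had 4 h values near 0 or opposite to the later ones. They were chosen by that difference, so this pattern adds no support. With median centring the 4 h values of Prdx4 (0.064), Actg2 (0.062), Cd63 (0.18) and Oxr1 (0.25) were above 0, as at the later times. The other genes named for a difference kept their sign in that setting. Cklf had -0.19 at 4 h against -1.58 at 12 h, a difference of 1.39 ± 0.24 (SE; adjusted p = 0.0159 with limma). Slbp had 0.22 against -0.92, a difference of 1.14 ± 0.20, and without animal 3 the differences were 1.56 and 1.22. The other probe of Slbp had 0.08 at 4 h. Prdx4, a peroxiredoxin of the endoplasmic reticulum, had -0.25 at 4 h and was called at 12 h (0.60) and 24 h (0.54). The glycolytic enzyme Gpi and the smooth muscle actin Actg2 had -0.29 and -0.28 at 4 h and were called higher at 12 h, at 0.76 and 0.65. The second probe of each had 0.15 and 0.00 at 4 h.

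Against 24 h, Bbs1, a component of the ciliary transport complex, had 0.21 at 4 h and -1.02 at 24 h, a difference of 1.23 ± 0.20 (SE; adjusted p = 0.00693 with limma). Cd63, a tetraspanin of late endosomes, had -0.12 and 0.97, and Oxr1, which protects against oxidative damage, -0.04 and 0.66. Abca8a, a lipid transporter, had -0.65 and 0.50, but was above background on 1 MAA and 1 saline array of 4 h, and its second probe had 0.35 at 4 h. Without animal 3 the differences against 12 h were -0.87 for Prdx4, -1.08 for Gpi and -0.96 for Actg2, and those against 24 h 1.31 for Bbs1, -1.17 for Cd63, -0.74 for Oxr1 and -1.12 for Abca8a, all called.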

How the data were processed

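The arrays measured testis RNA against reference RNA. The gene lists and their members were chosen with earlier results of these data known. Per the file headers the deposited array files hold raw spot intensities, which the authors also deposited as processed intensities and as a log2 ratio. How the authors scanned and normalized is not stated in the labels or headers. For this comparison the raw channels were normalized by loess within each array, without background correction and at weight 0 for 2073 spots that carry no processed values. These spots were tested apart, with 0 called by limma and 103 at an unadjusted p under 0.05. Of the deposited series table, 2 of the 11 columns of 4 h equal their own array and 9 another one within 1e-06, so it served as an alternative.

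All 47 arrays, 8 groups and 12 hybridisation dates entered one limma 3.58.1 fit (R 4.3.3, lmFit and eBayes) with 28 residual and 6.75 prior degrees of freedom. P-values were adjusted by Benjamini-Hochberg over 20500 probes and are two-sided. The median standard error at 4 h was 0.18, and the number of animals limits the precision. Replicates are separate animals. Correlation between arrays of 4 h was 0.756 to 0.913. One raw channel is deposited for 2 arrays, neither of them of 4 h. The platform annotation gave 12736 probes 1 symbol, 5 several and 7759 none. Lists use the brightest probe of a gene. Genes were named where called with or without animal 3, as the first 10 in each direction by p among probes above background on all arrays of a group, as up to 3 members of a list with the smallest p, narrowed to an unadjusted p under 0.05, and as the first 5 called in each difference between times. The fit was tested on simulated data. Alternatives changed normalization, input, filter, date term and animals.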

Additional observations from a re-analysis of the deposited data

Results flagged for a closer look

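Among 162 sets of animals (81 named probes in 2 groups), 15 held an animal far from the rest by the Dixon criterion, which chance alone flags in about 1 of 20. Of these, 7 were MAA animal 3 and 3 were saline animal 6, and genes were named partly for differences between times. Animal 3 was high in Cotl1 (log2 ratio -0.82, others up to -2.70), Hmox1 (1.06, others up to 0.25), Aifm1 (-0.41, others up to -1.15) and Psmd2 (0.57, others up to 0.14). It was low in Slc35a3 (0.36, others from 0.73), Cklf (-0.65, others from 0.61) and Slbp (-0.64, others from 0.21). Saline animal 6, the only 4 h animal of its date, was high in Mcm3 (2.36, others up to 0.24), Ldha (1.74, others up to 1.03) and Rps20 (1.12, others up to 0.20). The remaining animals were saline animal 5 in Syne4 (0.34, others up to 0.13), MAA animal 4 in Pdia4 (-0.12, others from 0.33), MAA animal 8 in Icam1 (-1.59, others from -1.08), MAA animal 7 in Cdc25a (1.22, others up to 0.88) and MAA animal 11 in Sc5d (0.78, others up to 0.38).

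The effect of MAA at 4 h differed by limma from that at 12 h in 44 probes and from that at 24 h in 66. The differences against 12 h were 1.39 for Cklf, 1.14 for Slbp, -0.85 for Prdx4, -1.05 for Gpi and -0.93 for Actg2. Against 24 h they were 1.23 for Bbs1, -1.09 for Cd63, -0.79 for Prdx4, -0.70 for Oxr1 and -1.15 for Abca8a.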

How the results depend on the processing

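The 4 h count of 4 calls became 17 with the testis channel alone, 14 with median centring, 7 with scaling between arrays, 7 with the authors' processed channels, 11 with probes above background on a share of 0.5 or more of the 4 h arrays, 10 with date as a random block and 0 with the series table as labelled. The other settings with all arrays gave 4 to 6. Fits on the 11 arrays of 4 h alone, which have fewer samples, gave 0 with and without date (1268 and 1256 at an unadjusted p under 0.05), and each shared date alone gave 0 (1111 and 1077). Without animal 3 the count of 5 became 18 with the testis channel alone and 0 in the series table, the fits on 4 h arrays alone and each shared date, and 5 to 7 otherwise. Leaving out single animals gave 3 to 6 calls, 3 without saline animal 2 or 6 or MAA animal 4. Of these, 1 call was lower in the fit without MAA animal 7 (unnamed probe 22522, -0.67) and 1 in that without saline animal 10 (unnamed probe 1155, -0.90). Rbm38 and both unnamed probes were called in 11 of 16 alternatives and in all 11 fits that leave out an animal, Dpf1 in 10 of 16 and 6 of 11. Over all alternatives 2061 values of named probes kept direction and side of the threshold, 22 lost a call and 33 gained one. Dexi, not called in the reported fit, was called in 9 of 16, and Lrp12, Slc38a2 and the second C7h12orf75 probe in 5 each. The number of probes differing from 12 h became 367 with median centring, 110 without animal 3 and 8 with the testis channel alone, and from 24 h 599 with median centring, 124 without animal 3 and 63 with the testis channel alone, of which 16 were among the 66. The cause of these shifts, those to 0 included, was not tested. Median centring raised the median of all genes from 0.00 to 0.09 and left 28 of 33 list medians above 0, against 13. Among named genes this setting turned the sign for Actg2 (0.062), Cd63 (0.18), Oxr1 (0.25), Prdx4 (0.064), Psmb5 (0.028), Srsf5 (0.028) and Tekt2 (0.021). The testis channel alone turned Actg2 (0.048) and Psmd2 (-0.059), the first shared date alone Epb42 (-0.029) and Oxr1 (0.12), scaling Oxr1 (0.011), leaving out MAA animal 12 Cd63 (0.0051) and leaving out saline animal 9 Oxr1 (0.00091, lowest -0.099 over all animals left out). The series table as labelled, whose columns mostly hold other arrays, turned 49 named probes: Dpf1 -0.44, Limk1 -0.27, Nfe2l2 -0.25, probe 5512 -0.22, Trpc1 -0.21, Ctnnbip1 -0.19, Rbm38 -0.18, Ncoa1 -0.18, C7h12orf75 -0.17, Kat2a -0.17, F11r -0.13, Slc38a2 -0.12, probe 4919 -0.12, Sirt3 -0.11, Sc5d -0.11, Dusp5 -0.084, Klf10 -0.060, Bbs1 -0.054, Aifm1 -0.038, Edem1 -0.027, Pdia4 -0.024, Alas2 -0.023, Psmd2 -0.019, Cotl1 -0.018, Myl9 -0.016, Cnbp 0.016, Psmb5 0.033, Puf60 0.054, Cd63 0.062, Abca8a 0.066, Podxl 0.080, Mcm3 0.082, Rpl4 0.086, Snrpn 0.093, Ldha 0.12, Cklf 0.13, Syne4 0.14, Oplah 0.15, Tekt2 0.18, Hnrnpl 0.18, Eno1 0.21, Acsl3 0.22, Maml3 0.24, Cct3 0.26, Srsf5 0.30, Deup1 0.31, Cacna1d 0.34, Zfp36 0.36, Cyp2a1 0.38. No paired analysis was possible because the animal numbers do not recur between the groups. Dim probes limit what can be seen, Dpf1 included.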

Other observations

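Leaving aside the fits without single animals, the alternatives together called 25 probes at 4 h, 18 of them with a symbol. Genes that were called in 1 or 2 of the 16 alternatives and not in the reported fit, named after their values were seen, include Rilpl2, Slc31a2, Fen1, Daglb, B4galt3 and Glud1. Their log2 changes in the reported fit were 0.48, 0.65, 0.38, 0.70, 0.56 and 0.43. Slc31a2 is a copper transporter, Fen1 a nuclease of DNA replication and Glud1 glutamate dehydrogenase. None of the 25 had a log2 change below 0 in the reported fit. The fits without single animals called 2 further probes, the unnamed 22522 and 1155, each once and lower (reported changes -0.51 and -0.71).

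Ribosomal protein genes varied more between animals than any other list. The list level, the median over 46 genes of the deviation from the mean of the 11 arrays, ran from -0.25 to 0.35 in the MAA animals and from -0.21 to 0.33 in the saline animals, beside -0.02 to 0.04 over all genes. Their median log2 change was 0.07 within the first shared date and -0.12 within the second.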
